A study of Mus musculus with 4 samples.

Results

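The insulin-like growth factor (IGF) axis was followed in the liver of mice on a normal diet or a diet deficient in methionine and choline (MCD diet). The 10 transcripts are those of the growth hormone receptor (Ghr), the ligand Igf1, the acid-labile subunit (Igfals), the IGF receptor (Igf1r) and the binding proteins Igfbp1, Igfbp2, Igfbp3, Igfbp4, Igfbp5 and Igfbp7. They were taken by gene symbol from the rows that the platform annotation gives to exactly 1 gene, and all 10 were found among 22180 such genes, each with 1 row. All samples came from wild-type male C57BL/6J mice, an inbred strain, which were assigned to a diet at random at 6 weeks of age and kept on it for 20 weeks. Each diet was represented by 2 samples on 1 array each, for 4 arrays in all. Sample titles number the mice without stating that each array holds RNA of a separate animal, and the p-values then reflect only the spread among these 4 samples, which may be technical. The labels give no body weight, food intake, fasting state or hour of sampling.

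Pituitary growth hormone binds its receptor on hepatocytes and, through the kinase JAK2 and the transcription factor STAT5B, drives transcription of Igf1 and Igfals. Liver is the main source of circulating IGF1, which travels largely in a complex of IGF1, a binding protein (IGFBP3 or IGFBP5) and the acid-labile subunit. The other binding proteins form smaller complexes that hold IGF1 back from its receptor or carry it to tissues, and IGFBP1 is known for rising when insulin is low. Adult hepatocytes carry little IGF1 receptor, so that much of the hepatic message of Igf1r is held to come from other liver cells.

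Signals are the authors' normalized values, read as log2, so that a difference of 1 is a 2-fold change. The median over the 22180 genes, called the gene median below, ran from 2.96 to 3.05 across the arrays, and the maxima were 12.1. Of 16 measured hepatocyte markers, 16 lay above the median normal diet signal of all genes, and their mean signal was 10.5 on both normal diet arrays and 10.2 to 10.3 on the MCD diet arrays. Genes are called where limma's adjusted p is under 0.05, over all 22180 genes. In all 9.98% of genes were called, 6.37% higher and 3.62% lower in MCD diet livers, and for 54.2% every array of one diet lay above every array of the other. Of the 10 transcripts, 5 were called, 2 higher and 3 lower, and 6 had arrays that did not overlap. The median difference of the 10 was 0.16, against -0.03 over all genes, and the median size of the difference was 0.63 against 0.18. By the mean signal over all 4 arrays, all 10 belonged to the brighter 50% of genes, where 18.1% were called. Igf1r did so only with its MCD diet arrays included, as 45.7% of genes were dimmer than its normal diet mean. Every count of called genes below is to be set beside these shares, 9.98% over all genes and 18.1% over the brighter 50%.

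The promoters that bear on these transcripts are those of Igfals and Igf1, which fell together, and of Igfbp1, whose arrays differed most within each diet. RefSeq (GRCm38.p6) gives 14 windows for the 10 genes, each reaching from 250 bases before to 50 bases after a transcript start, and the 250 bases before the start are shown 5′ to 3′ with the motif matches in capitals. The motifs searched on both strands were TTCNNNGAA (STAT5 type), TGTTTAC (FOXO or FOXA type), TGATGNAA (ATF4 type) and TGTTTTG (the insulin response type, added after the sequences were seen).

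Igfals, first start, chr17:24877594-24877843, plus strand: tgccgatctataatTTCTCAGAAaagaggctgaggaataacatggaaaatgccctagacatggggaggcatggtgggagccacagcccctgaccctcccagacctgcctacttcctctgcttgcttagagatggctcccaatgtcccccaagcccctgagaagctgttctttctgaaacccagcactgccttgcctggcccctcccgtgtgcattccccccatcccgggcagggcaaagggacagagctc

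Igfals, second start, chr17:24877981-24878230, plus strand: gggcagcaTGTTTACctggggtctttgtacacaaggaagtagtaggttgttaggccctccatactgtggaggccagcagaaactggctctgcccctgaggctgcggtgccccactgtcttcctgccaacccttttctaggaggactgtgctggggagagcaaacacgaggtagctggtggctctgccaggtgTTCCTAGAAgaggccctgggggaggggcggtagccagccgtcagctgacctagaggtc

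Igf1, chr10:87860861-87861110, plus strand: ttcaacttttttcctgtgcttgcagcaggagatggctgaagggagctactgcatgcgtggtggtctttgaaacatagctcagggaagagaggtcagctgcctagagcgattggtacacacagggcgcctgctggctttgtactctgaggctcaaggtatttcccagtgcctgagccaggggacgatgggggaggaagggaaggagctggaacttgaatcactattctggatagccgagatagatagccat

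Igfbp1, chr11:7197537-7197786, plus strand: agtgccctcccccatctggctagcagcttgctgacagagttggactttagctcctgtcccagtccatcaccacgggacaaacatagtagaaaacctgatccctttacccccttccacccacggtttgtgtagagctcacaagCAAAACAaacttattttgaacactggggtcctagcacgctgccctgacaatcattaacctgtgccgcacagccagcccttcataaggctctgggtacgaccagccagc

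The first Igfals window held TTCTCAGAA from base -236, and the second held TTCCTAGAA from base -58 and TGTTTAC from base -242, counted from the transcript start. The Igfbp1 window held CAAAACA, the reverse complement of TGTTTTG, from base -108. TTCNNNGAA occurs in 8.3% of the 32851 promoter windows of the same length, TGTTTAC in 3.65%, TGATGNAA in 3.97% and TGTTTTG in 6.28%. No match to these letters was found in the windows of the other 8 genes or in the third of Igfals. These matches describe the letters and were not tested for binding.

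At the head of the axis, the growth hormone receptor, its ligand-encoding target Igf1 and the acid-labile subunit were all lower in MCD diet livers. The estimated fall was largest for Igfals and smallest for Igf1, an order that was not tested. The Ghr signal was 8.37 and 8.17 in the normal diet livers, against 6.25 and 6.90 in the MCD diet livers. The lowest normal diet array thus lay 1.28 above the highest MCD diet array. Ghr fell by 1.70 ± 0.23 (3.25-fold lower, 95% interval 2.22 to 4.75; limma adjusted p = 0.00835), where ± gives the standard error of a log2 difference, as in all values below, with 2 arrays in each diet. In this direction 118 genes changed further. Fewer cells of a type and less RNA per cell cannot be told apart in whole liver, here or in the values that follow.

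Igfals, whose product keeps IGF1 in the circulation, had signals of 5.84 and 6.21 on normal diet and of 3.35 and 4.21 on MCD diet. The MCD diet arrays were both low but stood 0.86 apart, further than the normal diet arrays at 0.37. Igfals fell by 2.25 ± 0.29 (4.75-fold lower, 95% interval 2.89 to 7.81; limma adjusted p = 0.00796), and 61 genes of all tested fell further.

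Igf1 read 9.63 and 9.75 on normal diet and 8.89 and 9.08 on MCD diet. The arrays did not overlap, with 0.54 between the nearest. Igf1 fell by 0.70 ± 0.13 (1.63-fold lower, 95% interval 1.30 to 2.04; limma adjusted p = 0.0271). Its call was lost under quantile normalization, with a fall of 0.56 (adjusted p = 0.0547), and without any 1 of the 4 arrays (adjusted p from 0.0527 without MCD diet replicate 2 to 0.127 without normal diet replicate 2). Over the fitted alternatives its adjusted p ran from 0.014 to 0.127, while those of Ghr (0.00511 to 0.0387) and Igfals (0.00444 to 0.0389) stayed under the threshold.

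Differences of log2 signals within an array do not change when a constant is added to all signals of that array. Relative to Igf1 on the same array and to the normal diet mean, Igfals lay at -0.13 and 0.13 on normal diet and at -1.88 and -1.21 on MCD diet. Ghr lay at -1.22 and -0.77 on MCD diet and at 0.16 and -0.16 on normal diet. Both were therefore lower relative to Igf1 on each MCD diet array than on either normal diet array. These within-array differences were not tested.

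**Figure D1:**
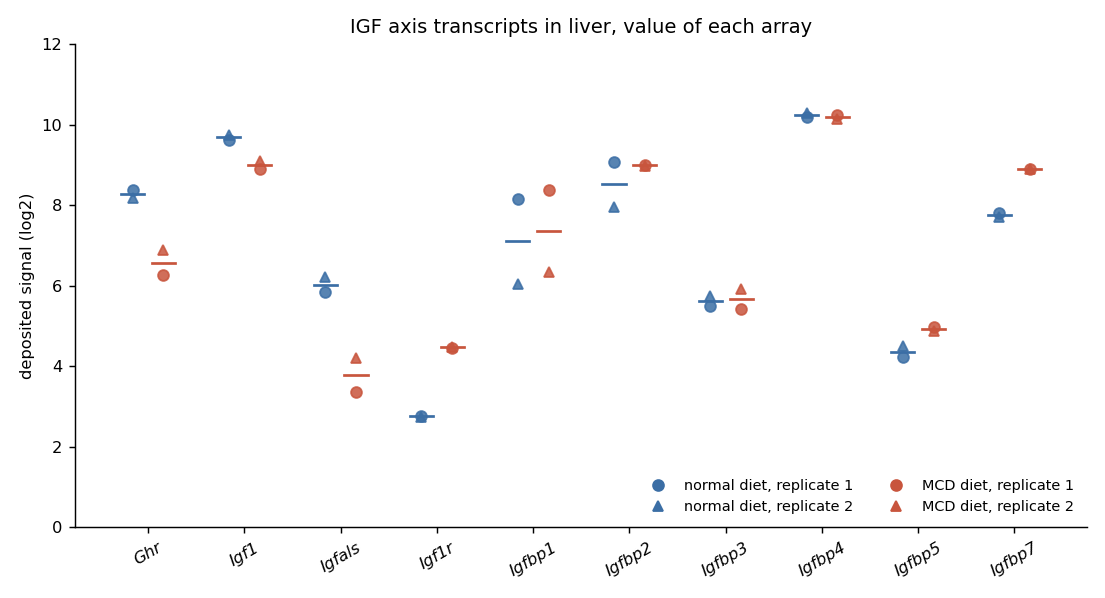
Deposited log2 signal (vertical axis) of each of the 10 transcripts on each array, normal diet in blue and MCD diet in red, circles for replicate 1 and triangles for replicate 2, with a bar at each diet's mean. The diets separate for Ghr, Igf1, Igfals, Igf1r, Igfbp5 and Igfbp7, whereas the Igfbp1 arrays separate by replicate number, near 8.16 and 8.38 against 6.05 and 6.35.

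The receptor for IGF1 changed the other way. Igf1r, the tyrosine kinase through which IGF1 signals, gave 2.77 and 2.74 on normal diet and 4.46 and 4.47 on MCD diet. The arrays of a diet agreed within 0.02, and the diets were 1.69 apart at their nearest. Igf1r rose by 1.71 ± 0.12 (3.27-fold, 95% interval 2.69 to 3.98; limma adjusted p = 0.00111), with 256 genes rising further. The normal diet signal lay below the gene median, and without detection values, which were not analysed here, it cannot be said how far that signal stood above background. Relative to Igf1 on the same array, Igf1r stood 2.50 and 2.32 above the normal diet mean on the MCD diet arrays. Over the fitted alternatives its difference ran from 1.60 to 1.72 and its adjusted p from 0.000996 to 0.00925.

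Of the 6 binding proteins 1 was called, Igfbp7, and it rose. That the other 5 were not called does not show that they were unchanged. IGFBP7 binds IGF weakly, is secreted into the matrix around vessels and is made by endothelial and mesenchymal cells. Igfbp7 read 7.80 and 7.70 on normal diet and 8.91 and 8.90 on MCD diet, with no overlap. It rose by 1.15 ± 0.12 (2.23-fold, 95% interval 1.82 to 2.72; limma adjusted p = 0.00382), and its adjusted p stayed between 0.00196 and 0.025 over the fitted alternatives. Set against Igfbp4 on the same array, it stood 1.16 and 1.26 above the normal diet mean on the MCD diet arrays.

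Igfbp5, a binding protein of mesenchymal cells that can form the complex with the acid-labile subunit, had signals of 4.22 and 4.50 on normal diet and 4.97 and 4.86 on MCD diet. The arrays did not overlap, but the difference of 0.56 ± 0.14 (95% interval 0.21 to 0.91) did not pass (limma adjusted p = 0.0663, and 0.0544 to 0.237 over the fitted alternatives).

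Igfbp3, which carries most circulating IGF1 and is made in liver mainly by cells other than hepatocytes, gave 5.50 and 5.75 on normal diet and 5.43 and 5.93 on MCD diet. Igfbp4, an inhibitory binding protein, gave 10.2 and 10.3 on normal diet and 10.2 and 10.1 on MCD diet. Both sets of arrays overlapped. The differences were 0.05 ± 0.20 for Igfbp3 (95% interval -0.43 to 0.53; limma adjusted p = 0.916) and -0.06 ± 0.12 for Igfbp4 (95% interval -0.36 to 0.25; limma adjusted p = 0.842). The bounds allow a rise of up to 1.45-fold for Igfbp3 and a fall of up to 1.28-fold for Igfbp4, and the sign of either difference turned under quantile normalization.

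Igfbp2, an abundant hepatic binding protein, read 9.08 and 7.95 on normal diet and 9.0 and 8.97 on MCD diet. The single low value was that of normal diet replicate 2, and the other 3 arrays lay between 8.97 and 9.08. The difference was 0.47 ± 0.34 (95% interval -0.36 to 1.31; limma adjusted p = 0.477). It depended on the normal diet arrays, at 1.03 without replicate 1 (adjusted p = 0.0271) and -0.09 without replicate 2 (adjusted p = 0.848).

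Igfbp1, the acutely regulated binding protein, gave 8.16 and 6.05 on normal diet and 8.38 and 6.35 on MCD diet. Within each diet replicate 1 was higher, by 2.11 on normal diet and by 2.04 on MCD diet, and the ranges of the diets overlapped. The difference between diets was 0.26 ± 0.85 (limma adjusted p = 0.899), and its 95% interval of -1.81 to 2.33 allows a rise of up to 5.04-fold as well as a fall. It turned to -0.79 without normal diet replicate 2 and to -0.76 without MCD diet replicate 1. A gap as large between arrays of 1 diet was seen in 0.0361% of genes on normal diet and in 0.0451% on MCD diet. Igfbp3, which lies next to Igfbp1 on the chromosome with 0 genes listed between them, did not show it, its replicate 1 being lower by 0.25 and 0.50.

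**Figure D2:**
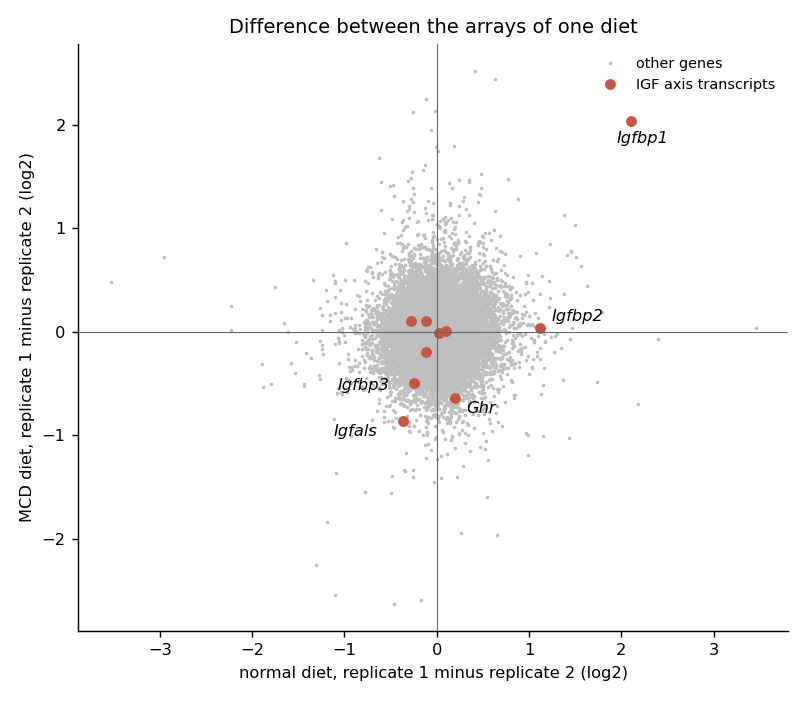
Difference between replicate 1 and replicate 2 (log2) on normal diet (horizontal axis) and on MCD diet (vertical axis), a grey point for each gene and red points for the 10 transcripts. Igfbp1 lies apart at 2.11 and 2.04, Igfbp2 differs on normal diet alone (1.12 against 0.03), and the other red points lie nearer to 0.

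**Figure D3:**
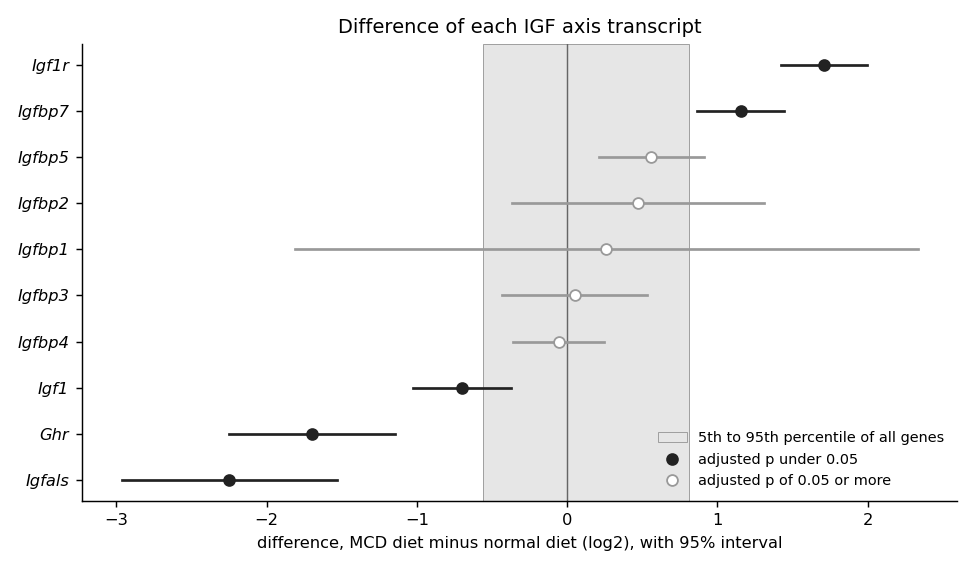
Difference between diets (log2, horizontal axis) of each transcript with its 95% interval from limma, ordered by size, filled where adjusted p is under 0.05, over a grey band from the 5th to the 95th percentile of all genes (-0.56 to 0.81). Igf1r and Igfbp7 lie above the band, Igf1, Ghr and Igfals below it, and the interval of Igfbp1 is the widest, from -1.81 to 2.33.

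Of 14 measured genes of growth hormone receptor signalling 1 rose and 0 fell, with a median difference of 0.15. This count stands beside 9.98% called over all genes and 18.1% over the brighter 50%. Of the 14, 13 lay above the median normal diet signal of all genes. The gene that rose was Sirpa (2.36 ± 0.13, limma adjusted p = 0.000601), which encodes a receptor of myeloid cells and other cells. The transducers Jak2 (0.34 ± 0.15, adjusted p = 0.249) and Stat5b (-0.22 ± 0.22, adjusted p = 0.609) did not pass. The feedback inhibitor Socs2, itself a STAT5 target, gave 4.66 and 4.70 on normal diet and 5.07 and 5.64 on MCD diet (0.68 ± 0.20, adjusted p = 0.0968), and passed without MCD diet replicate 1 (0.96, adjusted p = 0.0372). Cish, a further STAT5-driven inhibitor, differed by -0.51 ± 0.17 (adjusted p = 0.126) and passed only under quantile normalization among the alternatives run (-0.64, adjusted p = 0.0499). The dimmer rows of Cish and Socs2 differed by -0.097 and 0.47.

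Transcripts that depend on the sex-specific pattern of growth hormone changed far more. Of 17 male-biased genes 0 rose and 14 fell, with a median of -3.28. Of 14 female-biased genes 7 rose and 2 fell, with a median of 1.05. Over all genes 9.98% were called, and over the brighter 50% 18.1%. Slco1a1, an organic anion transporter, fell by 6.95 ± 0.13, and the estrogen sulfotransferase Sult1e1 rose by 6.34 ± 0.19. Onecut1, a hepatocyte transcription factor induced by growth hormone, fell by 1.78 ± 0.20 (limma adjusted p = 0.00449). It is on neither sex-biased list and is counted below among the hormone and nutrient signals.

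Of 30 measured receptors and relays downstream of IGF and insulin 2 rose and 1 fell, with a median of -0.11. That share lay close to the 9.98% called over all genes and below the 18.1% of the brighter 50%. Of these 30 genes, 28 lay above the median normal diet signal of all genes. Igf2r, the receptor that clears IGF2 and sorts lysosomal enzymes, rose by 0.77 ± 0.13 (limma adjusted p = 0.017), a call lost without normal diet replicate 1, normal diet replicate 2 or MCD diet replicate 1 (adjusted p = 0.0643, 0.0845 and 0.0852). Grb10, an adaptor that restrains both receptors, rose by 0.98 ± 0.22 (limma adjusted p = 0.0451), and that call was lost without the same arrays and under either rescaling of the arrays (adjusted p up to 0.182). The translation repressor gene Eif4ebp2 fell by 0.85 ± 0.12, a call lost without normal diet replicate 1 (adjusted p = 0.0552). The insulin receptor Insr differed by -0.32 ± 0.12 (adjusted p = 0.165), and the substrates Irs1 and Irs2 by 0.07 ± 0.17 and -0.40 ± 0.47.

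The other ligand and the wider binding protein family gave 3 higher and 1 lower of 16, with a median of 0.07. Beside this count stand 9.98% called of all genes and 18.1% of the brighter 50%. Ccn2, a matrix protein gene of the CCN family that shares the IGFBP fold, rose by 1.80 ± 0.22 (limma adjusted p = 0.00649). Its dimmer row differed by 0.04. Igfbp6, which prefers IGF2, rose by 0.69 ± 0.13 from signals of 3.0 and 2.83 to 3.55 and 3.66 (limma adjusted p = 0.0268), and the call was lost without any 1 array (adjusted p from 0.0631 without normal diet replicate 1 to 0.129 without normal diet replicate 2) and with the replicate number as a block (adjusted p = 0.0504). The fetal ligand Igf2 differed by 0.27 ± 0.19 at signals of 2.58 to 3.20, near the gene medians (adjusted p = 0.459). Among 6 genes that bind IGF2 message or belong to its locus, 0 were called by limma, with a median difference of -0.17, and all 6 lay below the gene median on every array.

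Of 22 genes of proteases that cleave binding proteins, and of their inhibitors, 7 rose and 0 fell, with a median of 0.03. The shares called were 9.98% over all genes and 18.1% over the brighter 50%. Htra3, among those that rose, is also counted as higher in the wider binding protein family above. The metalloproteinases Mmp7 and Mmp2 rose by 5.26 ± 0.24 and 2.36 ± 0.21, and the plasminogen activator Plat by 2.40 ± 0.18. The dimmer row of Mmp7 differed by 0.18. Pappa, the protease that cleaves IGFBP4, did not pass (0.31 ± 0.12 from dim normal diet signals of 2.20 and 2.09, adjusted p = 0.19), nor did its inhibitor Stc2 (-0.01 ± 0.13, adjusted p = 0.97).

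Hormone and nutrient signals that act on the hepatic axis went both ways, 3 higher and 4 lower of 17, with a median of -0.38. These counts, and those of the ATF4 targets below, stand beside 9.98% called of all genes and 18.1% of the brighter 50%. Lepr, the leptin receptor, rose by 2.16 ± 0.21 and Fgfr1 by 1.07 ± 0.13, while Onecut1, given above, had the largest fall. Fgf21, a fasting hormone known to blunt growth hormone action in liver, read 2.65 and 3.13 on normal diet and 3.84 and 4.70 on MCD diet. It rose by 1.38 ± 0.31 (limma adjusted p = 0.0436), a call lost under quantile normalization (adjusted p = 0.064) and without normal diet replicate 1, normal diet replicate 2 or MCD diet replicate 2 (adjusted p = 0.149, 0.0743 and 0.0939). ATF4 targets of amino acid shortage, a condition known to induce Igfbp1 in cultured hepatocytes, gave 6 higher and 0 lower of 20, with a median of 0.42. Asns, the asparagine synthetase, rose by 4.05 ± 0.24.

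**Figure D4:**
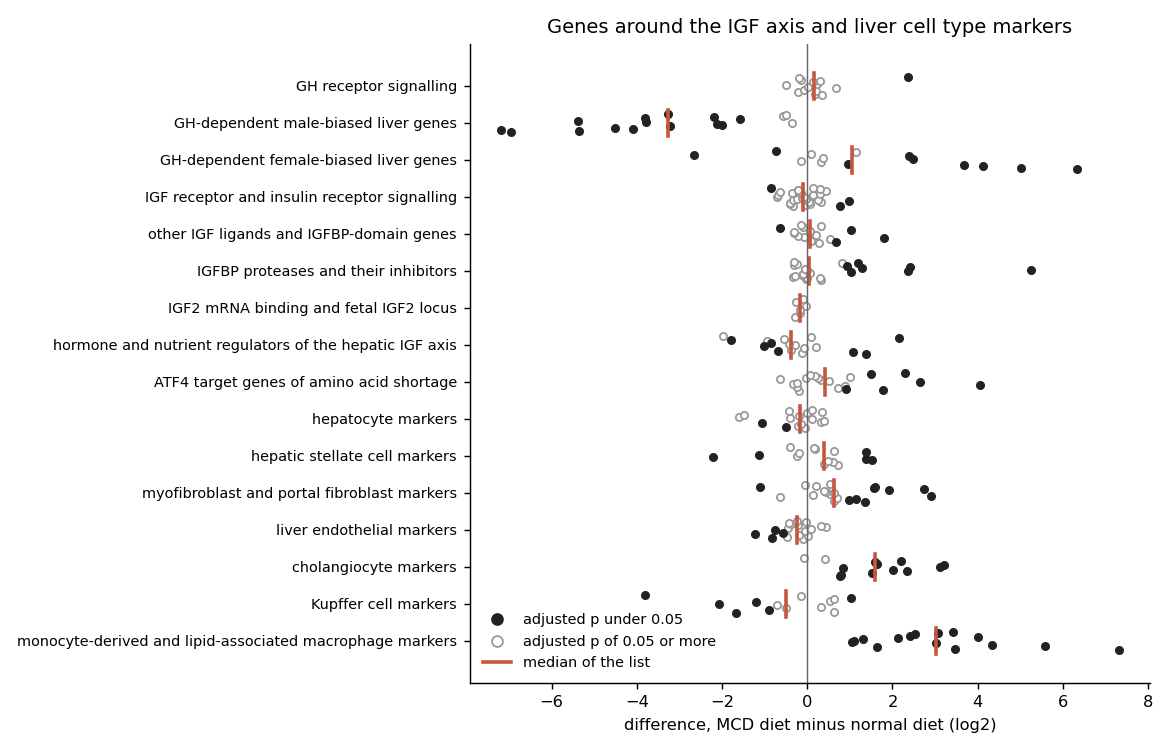
Difference between diets (log2, horizontal axis) of each measured gene in 16 lists, filled where adjusted p is under 0.05, with a red bar at the list's median. Growth hormone receptor signalling and IGF receptor signalling lie close to 0, with medians of 0.15 and -0.11, while the male-biased list lies at -3.28 and the macrophage list at 3.03.

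Markers of several cell types moved alongside Igf1r and Igfbp7, beside 9.98% called of all genes and 18.1% of the brighter 50%. For the endothelial and hepatocyte markers the share called in either direction lay near that of the brighter genes. Of 20 markers of myofibroblasts and portal fibroblasts 8 rose and 1 fell, their mean signal being 3.40 to 3.54 on normal diet and 4.15 to 4.44 on MCD diet, and 1 was below the gene median on every array. Of 15 stellate cell markers 3 rose and 2 fell (mean signal 5.08 to 5.33 and 5.42 to 5.43), with 1 below the gene median throughout. Of 13 cholangiocyte markers 11 rose and 0 fell (2.86 to 3.02 and 4.44 to 4.57), with 3 below the gene median throughout. The macrophage list, of monocyte-derived and lipid-associated cells, rose in 15 of 15 (3.58 to 3.59 and 6.53 to 6.84), with 0 below the gene median throughout. Endothelial markers, the cell class best known for Igfbp7, rose in 0 and fell in 4 of 18 (5.74 to 5.85 and 5.48 to 5.53), and Kupffer cell markers rose in 1 and fell in 5 of 13 (5.56 to 5.58 and 4.87 to 5.07), with 0 of either below the gene median throughout. C6, which had the largest fall among the Kupffer cell markers (-3.81), is also counted among the male-biased genes that fell. The hepatocyte markers, beside which the falls of Ghr, Igf1 and Igfals stand, gave 0 higher and 2 lower of 16 with a median of -0.17. The part of cell makeup in these differences was not tested.

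The called genes whose pattern over the 4 arrays was most like that of Igf1 were Aco1, Slc25a42 and Fahd1, at root mean square distances of 0.03 after each gene was centred on its own mean. For Igfbp1 the nearest called genes were Cttnbp2nl, Tbc1d1 and Plekho2, but at distances of 0.88 to 0.89. Among all genes, a pool chosen after the values were seen, Lss, Mir186 and Rny1 were nearer, at 0.505 to 0.51. Their replicate 1 was the higher in both diets, which a search for the pattern of Igfbp1 selects for.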

How the data were processed

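Total RNA of 4 liver samples was hybridised to Mouse Gene 2.1 ST arrays. The submitters' processing notes name Transcriptome Analysis Console as the tool with which the authors made the deposited values, read here as log2 signals. The base is inferred from their range, and how rows were summarized and normalized is not given in the sources used here. No sample column was left unused.

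Of 34472 rows, 23521 named exactly 1 gene. For each of 22180 genes the row with the highest mean was used, with no filter. Diets, from sample titles, were compared with limma 3.58.1 in R 4.3.3 (two-sided, no block, all 4 arrays), with Benjamini-Hochberg adjustment over all genes and a threshold of 0.05, and the script was tested on simulated data. Moderation raised the degrees of freedom from 2 to 6.06. The number of arrays limits the precision. In the simulated data 200 of 22180 genes were changed, with the spreads of these arrays shuffled among genes. Of log2 changes of 1, 23.4% were called, and of those of 2, 71.8%. In the real data 2214 genes were called. The adjustment depends on the share of genes that change, so these percentages do not give the sensitivity of the comparison here. A gene not called may have changed.

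The transcripts and the 16 lists (262 of 285 symbols measured, the others not analysed here) were chosen with earlier results of these data known. Genes were named by rule: every transcript, up to 4 called genes of a list with the largest differences (or 2 where none was called), a fixed set (Stat5b, Jak2, Socs2, Cish, Igf2, Igfbp6, Igf2r, Insr, Irs1, Irs2, Fgf21, Pappa, Stc2) and the 3 nearest patterns to Igf1 and Igfbp1 among called genes. The genes nearest to Igfbp1 among all genes, and those named for their gap between replicates, were chosen after their values were seen. Promoters are from RefSeq. Protein sequences were not analysed here. The alternatives were quantile normalization, median centring, a limma trend on intensity, filters that removed the dimmest 25% or 50%, every row, mean of rows, unadjusted p with 2-fold change, a replicate block and leaving out each array.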

Additional observations from a re-analysis of the deposited data

How the results depend on the processing

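The calls of Ghr, Igfals, Igf1r and Igfbp7 held in direction and threshold in all 13 alternatives, and Igfbp5 passed in none of the 12 fitted ones. Beside the losses given for Igf1, it does not reach 2-fold. The number of called transcripts was 4 or 5 in every alternative that kept all 4 arrays. Without normal diet replicate 1 the called set changed, with Igf1 (-0.76) out of it and Igfbp2 (1.03) in it. Over all genes 2214 were called, 1155 by the rule that asks for 2-fold change and an unadjusted p below 0.05, and 1050 (without MCD diet replicate 1) to 1493 (without MCD diet replicate 2) with an array left out, 1321 and 1093 without normal diet replicates 1 and 2. With the replicate number as a block 1950 genes and the same number of transcripts, 5, were called. The labels do not say that numbers pair samples, and the deviations of same-numbered arrays correlated at 0.05 across genes.

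Signs turned for differences that were not called. Under quantile normalization Igfbp3 was at -0.033, Igfbp4 at 0.12 and Stc2 at 0.023, under median centring Igfbp3 at -0.015, and with the mean of rows Irs1 at -0.049. With an array left out, values ran from -0.79 to 1.31 for Igfbp1, -0.089 to 1.03 for Igfbp2, -0.20 to 0.30 for Igfbp3, -0.11 to 0.0023 for Igfbp4, -0.092 to 0.24 for Irs1, -1.11 to 0.30 for Irs2 and -0.49 to 0.049 for Stat5b. Igfbp3 was at -0.07 without normal diet replicate 1 and Igfbp1 at -0.76 without MCD diet replicate 1. Stc2 was at 0.011 without normal diet replicate 1 and at 0.073 without MCD diet replicate 2. The causes were not tested. Of the 54 called list genes that the naming rule allows, 40 kept their call in every alternative that gave a value, 14 lost it in at least 1, and 0 turned sign. Median centring moved the median of all genes from -0.03 to -0.10. Of the calls over all genes 63.8% were higher on MCD diet, 55.5% under quantile normalization and 54.0% under median centring.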

Other observations

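Igfbp1 had the largest same-direction difference between replicate numbers of all 22180 genes, by the smaller of its gaps within the diets (2.04), a ranking made after its values were seen. In 7 genes the arrays of both diets differed by more than 1 in the same direction, against 2 genes in opposite directions. Replicate 1 was the higher in 3 of the 7, Igfbp1, Dhrs9 and Mir186, and the lower in the other 4, Acot3, C730036E19Rik, Sult2a3 and Arrdc3. Acot3, a peroxisomal acyl-CoA thioesterase, read 4.33 and 5.63 on normal diet and 4.03 and 6.28 on MCD diet, so its replicate 2 was higher where that of Igfbp1 was lower. Arrdc3, an arrestin-domain gene, read 7.03 and 8.13 on normal diet and 7.48 and 8.84 on MCD diet. The insulin receptor substrate Irs2 had smaller gaps in the direction of Igfbp1, with 6.90 and 5.49 on normal diet and 6.17 and 5.42 on MCD diet. The labels do not say that arrays of one number share a day, cage or hour.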
